A study of Mus musculus with 6 samples.

Results

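The genes of the elastic fibre and its microfibril scaffold were followed in the stromal vascular cells of mouse inguinal white adipose tissue (iWAT). The set held 10 genes, Eln, Fbn1, Fbn2, Fbln1, Fbln2, Fbln5, Mfap4, Mfap5, Lox and Loxl1, of the 31053 genes counted, and its members were chosen by symbol, with earlier results of these data known. Each symbol matched 1 row of the count tables. Cells came from C57BL/6 males (substrain JN or J), young at 9 weeks and aged at 57 weeks. The tissue was digested with collagenase and dispase, and live cells without the immune marker CD45 were sorted. All mice, those without cold exposure included, were first kept at 30 °C for 3 weeks; the TN (thermoneutral) mice then stayed at 30 °C for 2 more weeks, whereas the 3D and 14D mice spent the last 3 or 14 days at 6 °C. Single-cell libraries were made by droplet-based capture, 1 for each age and temperature and 6 in all. By the study's methods, mice were pooled only where this is stated, and no pooling of mice is stated for these libraries; a number of mice per library was not found in the sources used here. Ages were therefore compared over the 3 temperatures, and p-values measure the spread between these libraries, which may be technical in part. Transcripts were counted as unique molecular identifiers (UMIs).

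Elastic fibres give connective tissue its recoil. Fibroblasts and smooth muscle cells secrete tropoelastin, which is deposited on a scaffold of fibrillin microfibrils with the help of fibulins and microfibril-associated proteins, and lysyl oxidases then cross-link it into insoluble elastin. The fibres are laid down mainly during growth and turn over slowly, and fibrillin microfibrils also bind latent TGF-β and BMP complexes. In subcutaneous fat, Dpp4+ progenitors lie in a fibrous interstitial layer that surrounds the lobules, and Icam1+ preadipocytes lie among the adipocytes.

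The libraries held 52068837 to 88508349 UMIs and 8030 to 10880 cells each after filtering, 57326 cells in all, with a median of 2742 to 9904 UMIs per cell. Every aged library was shallower than every young one. Per kept cell the median was 9904, 8312 and 7652 UMIs in the young TN, 3D and 14D libraries. In the aged TN, 3D and 14D libraries it was 6726, 6912 and 2742 UMIs. Total UMIs were at least 87219354 in young and at most 74590296 in aged libraries. Shares of cells given at full depth below therefore compare unlike depths between the ages. The aged 14D library was the shallowest, with 3970 of its cells under 2000 UMIs. Clusters were named from marker lists, so every name means cells like that type. There were 19506 Dpp4+ fibroblasts, 14689 Icam1+ preadipocytes, 4081 Cd142+ fibroblasts, 4038 endothelial-like cells, 1376 smooth muscle cell or pericyte-like (SMC/pericyte) cells, 385 Schwann-like cells and 420 immune-like cells that had escaped the depletion. A further 8530 cells, led by Scg3, Dkk2, Cxcl13, Wisp2, Sult1e1 and the member Fbln1, had Pdgfra, the general fibroblast marker, in 85.6% of cells but matched no marker list, and are called unnamed Pdgfra+ cells. Another 4301 cells got no name, 3894 of them in a cluster with a median of 1273 UMIs to which the aged 14D library gave 3344 cells. The Schwann-like cells had all 7 markers of their list but also Pdgfra in 50.1% of cells. Libraries shared 30 to 44 barcode sequences per pair. Levels are UMIs per 1000000 UMIs (CPM), summed over the cells of a class in a library. As sequencing read the 3′ ends of transcripts, levels are compared between cells and libraries, not between genes.

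RefSeq promoters (GRCm38.p6) were at hand for 4 members, Fbn1, Fbln1, Fbln2 and Fbln5. In this build, GRCm38, which lies behind the authors' mm10 reference, the 250 bases before the upstream start of Fbln1 are shown because Fbln1 fell with age in all 4 Pdgfra+ classes below. They span chr15:85205699-85205948, plus strand, and overlap no annotated exon of the gene. Capitals mark matches to CAGAC, the core of a SMAD binding motif, on either strand (here as GTCTG):
Fbln1 promoter: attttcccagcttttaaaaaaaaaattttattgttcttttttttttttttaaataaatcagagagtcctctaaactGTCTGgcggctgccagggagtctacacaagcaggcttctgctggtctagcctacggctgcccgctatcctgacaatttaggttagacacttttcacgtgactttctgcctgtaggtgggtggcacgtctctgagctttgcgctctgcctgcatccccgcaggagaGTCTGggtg
The Fbln1 window held 2 matches to CAGAC, which 42.2% of the 32851 RefSeq promoter windows of the same length also hold. On both strands it held no match to a GC box (GGGCGG, in 32.7% of windows), a TATA box (TATAAA, 12.4%), an AP-1 motif (TGANTCA, 6.75%) or a TEAD motif (GGAATG, 12.6%). The windows of Fbn1, Fbln2 and Fbln5 held 1, 1 and 2 GC boxes and none of the other 4 motifs. Those of Fbn1 and Fbln2 overlap an annotated exon of their gene, and that of Fbln5 does not. A match is a run of letters and was not tested as a binding site.

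The genes lie on several chromosomes. In GRCm38, Eln is annotated by GENCODE at chr5:134702593-134747323, Fbn1 at chr2:125300594-125507993, Fbn2 at chr18:58008623-58210487, Fbln1 at chr15:85205949-85286535, Fbln2 at chr6:91212455-91272540, Fbln5 at chr12:101746565-101819055, Mfap4 at chr11:61485431-61488900, Mfap5 at chr6:122505845-122529290, Lox at chr18:52516067-52529867 and Loxl1 at chr9:58287738-58313186.

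The members were spread unevenly over the cell classes, and most were highest in fibroblasts. Dpp4+ fibroblasts had the highest levels of Fbn1, fibrillin-1, the main microfibril protein (783 to 1969.6 CPM over the 6 libraries), of Mfap5, the microfibril-associated glycoprotein MAGP-2 (1325 to 2106 CPM), and of Loxl1, a lysyl oxidase needed for elastin renewal (481 to 826 CPM). Icam1+ preadipocytes had the highest levels of Lox, the founding lysyl oxidase (364 to 652 CPM against 55.7 to 122 CPM in Dpp4+ fibroblasts), and of Fbln2, a fibulin of basement membranes and microfibrils (424 to 641 CPM). Cd142+ fibroblasts led for Eln, tropoelastin (160.1 to 514 CPM), Fbln1, a fibulin that binds elastin and fibronectin (403 to 717 CPM), and Mfap4, an elastin-binding microfibril protein (15.1 to 107 CPM against 0.304 to 1.04 CPM in Dpp4+ fibroblasts). Fbln5, the fibulin that links tropoelastin to cells and microfibrils, stood apart from the others: it was highest in endothelial-like cells, at 207 to 272 CPM, which did not overlap its 122 to 145 CPM in Dpp4+ fibroblasts. Fbn2, the fibrillin associated with development, was scarce everywhere; its highest mean was in the Schwann-like cells, at 0 to 40.2 CPM from at most 13 UMIs a library. These are descriptions of clusters and were not tested. Over the 6 libraries the ranges of neighbouring classes overlapped for most members; between the first and second class only those of Fbln5 and Mfap5 did not.

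**Figure D1:**
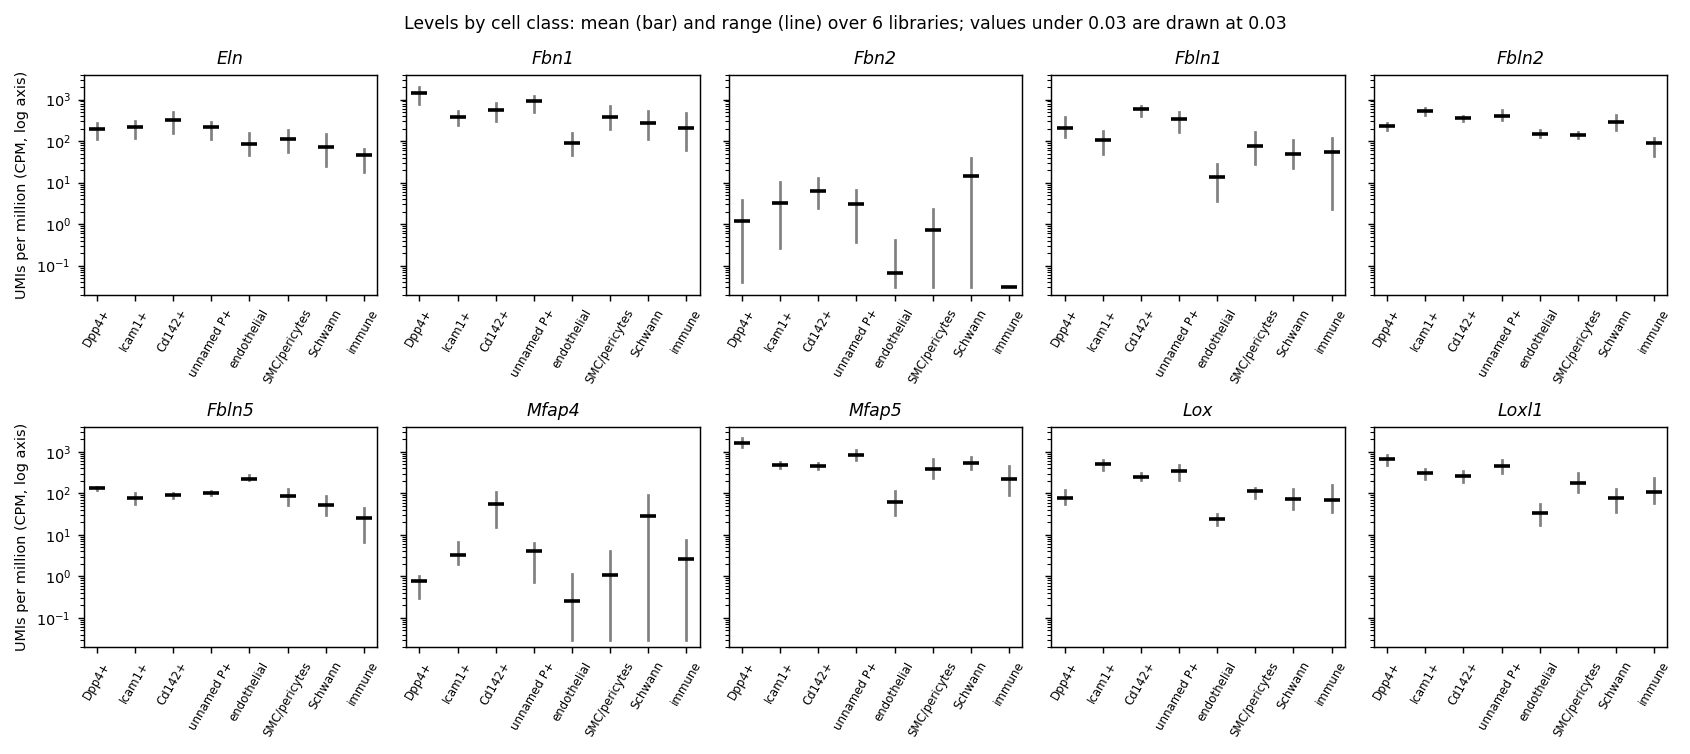
Level of each member (CPM, log axis) by cell class; the bar is the mean and the line the range over 6 libraries, and values under 0.03 CPM are drawn at 0.03. P+ stands for Pdgfra+. Fbn1, Mfap5 and Loxl1 are highest in Dpp4+ fibroblasts, Lox and Fbln2 in Icam1+ preadipocytes, Eln, Fbln1 and Mfap4 in Cd142+ fibroblasts, and Fbln5 in endothelial-like cells.

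Free RNA and cells captured together can carry fibroblast transcripts into other classes. At 2000 UMIs per cell, Fbn1 was seen in 87.5 to 94.3% of young and 69.7 to 86.9% of aged Dpp4+ fibroblasts, and in 12.8 to 29.2% of young immune-like cells, which should lack it. In aged immune-like cells Fbn1 was seen in 4 of 63 (TN), 4 of 50 (3D) and 9 of 45 cells (14D). For Fbn1 in endothelial-like cells the shares were 9.66 to 12.7% and 5.95 to 7.51%, below those of the immune-like cells in 5 of the 6 libraries, and no expression is read from them here. The median depth before thinning was 2858 to 4214 UMIs in endothelial-like and 1564 to 7447 UMIs in immune-like cells. By contrast Fbln5 was seen in 15.4 to 20.6% of young and 17.7 to 21.3% of aged endothelial-like cells, and its level in the immune-like cells was 6.85 to 45.5 CPM. Shares carry counting error only; that of Fbn1 in the young TN Dpp4+ fibroblasts had an exact 95% interval of 93.2 to 94.8%.

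The effect of age was tested first, in each class over 6 libraries with temperature as a term. In Dpp4+ fibroblasts 7 of the 10 members fell with age and none rose, beside 16.3% of the 13208 genes tested that changed in either direction. In Icam1+ preadipocytes 6 fell and 2 rose, with a background of 12.4%, and in Cd142+ fibroblasts 7 fell and 1 rose, with a background of 12.6%. The unnamed Pdgfra+ cells, a class added after the clusters were seen, had 6 falls and 1 rise with a background of 13.3%. The median log2 fold change of the 10 members was -0.70 in Dpp4+ fibroblasts, -0.41 in Icam1+ preadipocytes, -0.61 in Cd142+ fibroblasts and -0.61 in the unnamed Pdgfra+ cells, while the median over all genes tested lay between -0.0045 and 0.0017. All 10 members passed the filter on low counts in these 4 classes, called the Pdgfra+ classes below. By levels scaled as for the test, the ages did not overlap for 8 of the 10 members in Dpp4+ fibroblasts, beside 24.0% of all genes tested. The counts were 4 in Icam1+ preadipocytes (22.4% of all genes), 8 in Cd142+ fibroblasts (23.7%) and 4 in the unnamed Pdgfra+ cells (24.6%). Ages without overlap are thus common among all genes. With no temperature term only Fbn2 was called in Icam1+ preadipocytes, beside 311 of all 12702 genes tested. In Cd142+ fibroblasts that fit called 5 members (Eln, Fbn2, Fbln1, Mfap4 and Loxl1), beside 524 of 10876 genes. DESeq2 also called 5 there (Eln, Fbn1, Fbln1, Mfap4 and Loxl1), beside 475 of 11158 genes. In the unnamed Pdgfra+ cells the fit with no temperature term kept 2 of the 7 calls, Fbln1 and Loxl1, beside 430 of 11924 genes. High doublet scores were found in 20.8% of these cells. Without such cells 5 members were called, with Eln and Fbn2 lost, beside 1277 of 11635 genes. A call means an adjusted p below 0.05 by edgeR over all genes tested. Below, values per library stand in the order TN, 3D and 14D.

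**Figure D2:**
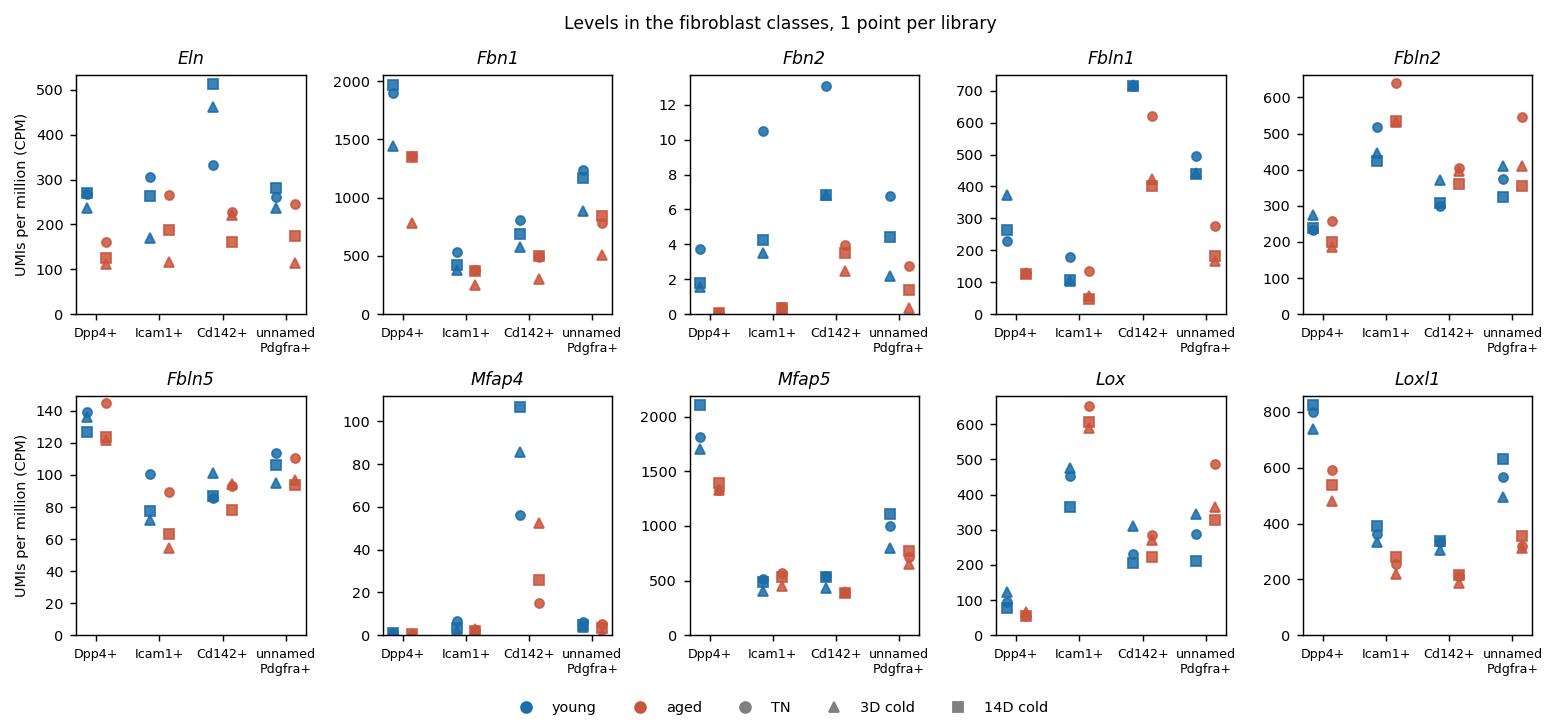
Level of each member (CPM) in the 4 Pdgfra+ classes, 1 point per library, with age by colour and temperature by shape. Aged libraries lie below all young ones for Eln, Fbn1, Fbln1, Mfap5, Lox and Loxl1 in Dpp4+ fibroblasts, whereas for Lox in Icam1+ preadipocytes they lie above all young ones. Among all genes tested the ages did not overlap for 24.0% in Dpp4+ fibroblasts and 22.4% in Icam1+ preadipocytes.

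**Figure D3:**
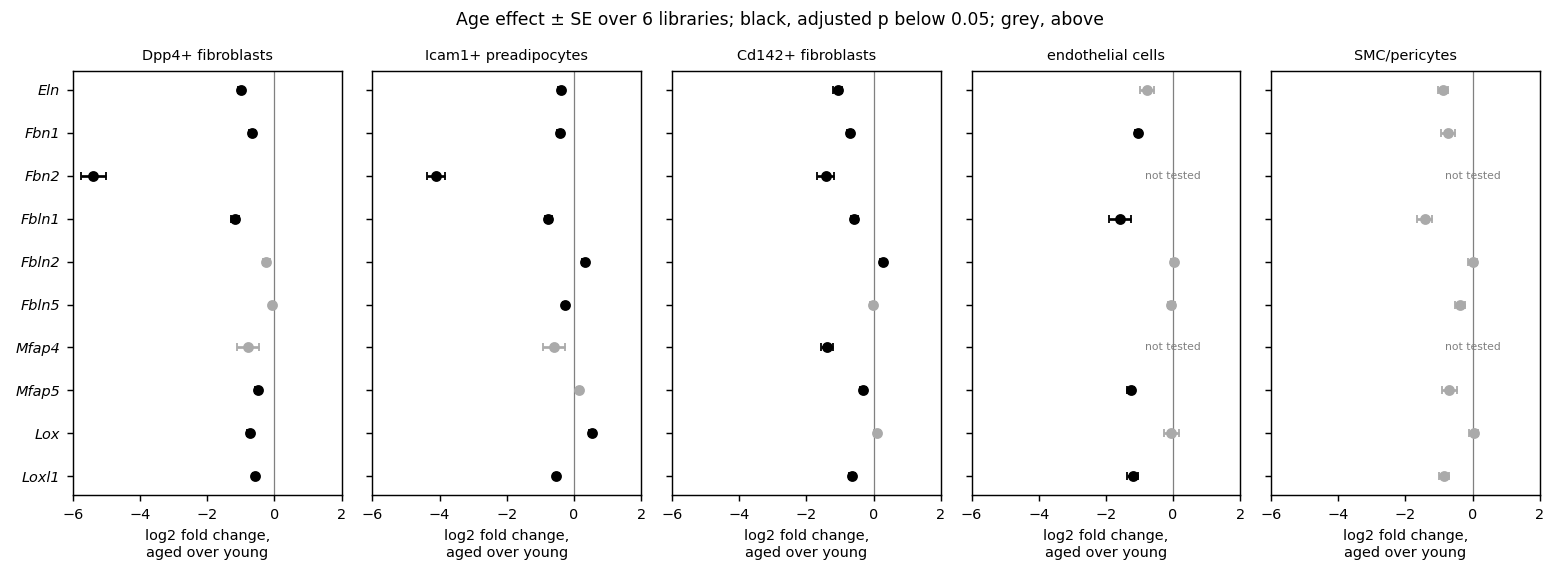
Log2 fold change with age, aged over young, with its SE (horizontal bars) for each member in the 5 classes set for testing; black points passed the threshold and grey points did not. Fbn2 and Mfap4 had too few UMIs to be tested in endothelial-like and SMC/pericyte cells, and the values of Fbn2 in Dpp4+ fibroblasts rest on 1 UMI in each aged library.

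Eln, the gene for tropoelastin, fell in all 4 Pdgfra+ classes. In Dpp4+ fibroblasts it stood at 268, 236 and 271 CPM in young and 161, 111 and 124 CPM in aged libraries. Each aged library lay below every young one, and the fall was about 1 log2 unit (log2 fold change -1.01 ± 0.08 (SE), adjusted p = 7.17e-05). In Cd142+ fibroblasts Eln was at 332, 462 and 514 CPM in young and 227, 221 and 160.1 CPM in aged libraries, again without overlap (log2 fold change -1.06 ± 0.14 (SE), adjusted p = 4.62e-05). The Icam1+ preadipocytes had 306, 170.1 and 262 CPM in young and 265, 116 and 187 CPM in aged libraries. Here the young 3D library lay below 2 of the aged ones, while at each temperature the aged value was the lower (log2 fold change -0.40 ± 0.07 (SE), adjusted p = 0.00917). That call was lost without the young 3D, the aged 3D or the aged 14D library (largest adjusted p = 0.143). In the unnamed Pdgfra+ cells the log2 fold change was -0.59 ± 0.15 (adjusted p = 0.0271), lost without the young 3D or aged 3D library (largest adjusted p = 0.154). It was also lost without cells of high doublet score (adjusted p = 0.0828) and with no temperature term (adjusted p = 0.247). At 2000 UMIs per cell, Eln was seen in 33.7 to 38.3% of young and 19.3 to 26% of aged Dpp4+ fibroblasts (70.9 to 79.5% and 44.9 to 60.1% at full depth), and in 2.74 to 9.23% and 1.59 to 6.67% of immune-like cells.

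Both fibrillins fell. Fbn1 in Dpp4+ fibroblasts was at 1899.9, 1445 and 1969.6 CPM in young and 1356, 783 and 1345 CPM in aged libraries, with no overlap between the ages (log2 fold change -0.67 ± 0.08 (SE), adjusted p = 0.000644). That call was lost with no temperature term (adjusted p = 0.135). It also fell in Cd142+ fibroblasts, from 689.7 ± 119.9 to 429 ± 112 CPM (SD, n = 3 libraries an age; log2 fold change -0.69 ± 0.09 (SE), adjusted p = 5.59e-05), and in the unnamed Pdgfra+ cells (log2 fold change -0.63 ± 0.09 (SE), adjusted p = 0.00203). With no temperature term neither call was made (adjusted p = 0.0618 and 0.137). The fall in Icam1+ preadipocytes was smaller, -0.41 ± 0.09, and its call (adjusted p = 0.0175) was lost without the young 3D or aged 3D library (largest adjusted p = 0.188).

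Fbn2 was nearly absent from aged Dpp4+ fibroblasts and Icam1+ preadipocytes. The Dpp4+ fibroblasts held 119, 45 and 53 UMIs of Fbn2 in the young TN, 3D and 14D libraries and 1 UMI in each aged library. Pooled over temperatures this is 217 UMIs against 3, a level 49.3 times higher in young cells with an exact 95% interval of 16.6 to 241, which covers counting error only. In Icam1+ preadipocytes the counts were 241, 93 and 92 UMIs in young and 10, 6 and 4 in aged libraries, a ratio of 16.6 (10.6 to 27.4). The difference was smaller in Cd142+ fibroblasts, 149 UMIs against 36 and a ratio of 2.76 (1.9 to 4.09), where the test gave log2 fold change -1.42 ± 0.26 (SE), adjusted p = 0.0014. The test also called Fbn2 in Dpp4+ fibroblasts (adjusted p = 3.72e-05), Icam1+ preadipocytes (adjusted p = 3.42e-05) and the unnamed Pdgfra+ cells (log2 fold change -1.61 ± 0.28 (SE), adjusted p = 0.00492). In the unnamed Pdgfra+ cells the call was lost with equal cells at 2000 UMIs, without cells of high doublet score (adjusted p = 0.111) and with no temperature term (adjusted p = 0.179). In Cd142+ fibroblasts it was lost with equal cells at 2000 UMIs and with DESeq2 (largest adjusted p = 0.0772). The age effect differed between Cd142+ and Dpp4+ fibroblasts (adjusted p = 0.000688) and between Cd142+ fibroblasts and Icam1+ preadipocytes (adjusted p = 0.00344); fitted sizes of these differences are not given here because the aged levels rest on so few UMIs. Per cell, at 2000 UMIs, Fbn2 was seen in 0.569 to 2.32% of young and 0 to 0.0986% of aged Icam1+ preadipocytes (2.45 to 7.53% and 0.136 to 0.197% at full depth). At full depth 1 cell in each aged Dpp4+ library had a UMI of Fbn2. At 2000 UMIs none of the 3524 Dpp4+ fibroblasts of the aged 3D library had one, which allows up to 0.0851% of cells with a UMI at that depth and sets no limit on the share of cells that express the gene.

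The microfibril-associated genes Mfap5 and Mfap4 differed by class in what was called. Mfap5 in Dpp4+ fibroblasts was at 1814, 1708 and 2106 CPM in young and 1325, 1329.7 and 1388 CPM in aged libraries, and the ages did not overlap (log2 fold change -0.50 ± 0.07 (SE), adjusted p = 0.0022). In Icam1+ preadipocytes it stood at 519, 404 and 486 CPM in young and 573, 454 and 529 CPM in aged libraries, and the difference did not pass the test (log2 fold change 0.16 ± 0.07 (SE), adjusted p = 0.197). The age effect on Mfap5 differed between these 2 classes by 0.64 ± 0.12 (SE), adjusted p = 0.0211, a call lost without the young 3D, young 14D or aged 14D library (largest adjusted p = 0.103). It also differed between Cd142+ fibroblasts and Icam1+ preadipocytes, by -0.48 ± 0.09 (SE), adjusted p = 0.0148. That call was lost without the young 14D or aged 14D library (largest adjusted p = 0.0902) and with the per-cell marker gate (adjusted p = 0.1004). In Cd142+ fibroblasts Mfap5 fell by little (log2 fold change -0.32 ± 0.09 (SE), adjusted p = 0.024), and only 2 of the 6 fits that left out a library kept this call, those without the young 3D or aged 3D library (largest adjusted p = 0.204). It was also lost with DESeq2, with the per-cell marker gate and with members and markers among the clustering genes. Its fall in the unnamed Pdgfra+ cells (log2 fold change -0.43 ± 0.09 (SE), adjusted p = 0.015) was likewise kept in only 2 of those 6 fits (largest adjusted p = 0.108).

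Mfap4 was measurable mainly in Cd142+ fibroblasts, at 56.3, 85.8 and 107 CPM in young and 15.1, 52.6 and 25.7 CPM in aged libraries. The highest aged library lay just below the lowest young one (log2 fold change -1.38 ± 0.18 (SE), adjusted p = 6.92e-05), and the call held with each library left out. At 2000 UMIs per cell, 4.03 to 4.38% of young and 1.3 to 2.42% of aged Cd142+ fibroblasts had a UMI of Mfap4, against 0.0763 to 0.248% and 0.0446 to 0.112% of Dpp4+ fibroblasts. In Dpp4+ fibroblasts, with 5 to 33 UMIs a library, the difference did not pass the test (log2 fold change -0.78 ± 0.34 (SE), adjusted p = 0.155). Nor did it in Icam1+ preadipocytes (log2 fold change -0.59 ± 0.34 (SE), adjusted p = 0.299) or the unnamed Pdgfra+ cells (log2 fold change -0.81 ± 0.32 (SE), adjusted p = 0.129).

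Among the fibulins, Fbln1 fell in all 4 Pdgfra+ classes, whereas Fbln2 and Fbln5 were each called in fewer. Fbln1 in Dpp4+ fibroblasts was at 228, 373 and 264 CPM in young and 128, 128 and 127 CPM in aged libraries. The 3 aged values lay close together and below all young ones (log2 fold change -1.17 ± 0.11 (SE), adjusted p = 0.000178). It fell by 0.76 ± 0.11 log2 units in Icam1+ preadipocytes (adjusted p = 0.0022), by 1.16 ± 0.11 in the unnamed Pdgfra+ cells (adjusted p = 0.000212) and by 0.57 ± 0.10 in Cd142+ fibroblasts (adjusted p = 0.00104). In Cd142+ fibroblasts it stood at 715, 717 and 715 CPM in young and 621, 425 and 403 CPM in aged libraries. The calls of Fbln1 in these 4 classes held with each library left out.

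Fbln2 went the other way where it was called. In Icam1+ preadipocytes it was at 518, 445 and 424 CPM in young and 641, 533 and 535 CPM in aged libraries, higher in aged cells at each temperature (log2 fold change 0.32 ± 0.07 (SE), adjusted p = 0.0234). That call was lost without the young 3D, young 14D, aged 3D or aged 14D library (largest adjusted p = 0.166) and with equal cells at 2000 UMIs. In Cd142+ fibroblasts Fbln2 was called higher as well (log2 fold change 0.27 ± 0.08 (SE), adjusted p = 0.0353), but leaving out any of the 6 libraries ended the call (largest adjusted p = 0.27), as did DESeq2, resolutions 0.3 and 1.0 and the removal of high doublet scores. In Dpp4+ fibroblasts the difference was -0.25 ± 0.11 and did not pass (adjusted p = 0.168). The age effect on Fbln2 differed between Cd142+ and Dpp4+ fibroblasts by 0.51 ± 0.10 (SE), adjusted p = 0.00925, a call lost without the young 14D or aged 3D library (largest adjusted p = 0.0838). Fbln5 in Dpp4+ fibroblasts was at 139, 136 and 127 CPM in young and 145, 122 and 124 CPM in aged libraries and did not pass (log2 fold change -0.07 ± 0.06 (SE), adjusted p = 0.427). Only in Icam1+ preadipocytes among the classes tested was Fbln5 called, lower in aged cells (log2 fold change -0.27 ± 0.06 (SE), adjusted p = 0.0224). The call was lost without the young 3D, young 14D, aged 3D or aged 14D library (largest adjusted p = 0.27), with DESeq2 and with equal cells at 2000 UMIs.

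The 2 cross-linking enzymes parted. Loxl1 fell in all 4 Pdgfra+ classes, by 0.52 to 0.76 on the log2 scale. It stood at 799.7, 736 and 826 CPM in young and 592, 481 and 536 CPM in aged libraries for Dpp4+ fibroblasts (log2 fold change -0.58 ± 0.06 (SE), adjusted p = 0.000372). For Icam1+ preadipocytes its levels were 364, 334 and 390.2 CPM in young and 254, 218 and 279 CPM in aged libraries (log2 fold change -0.52 ± 0.07 (SE), adjusted p = 0.00154). The falls in Cd142+ fibroblasts (log2 fold change -0.64 ± 0.08 (SE), adjusted p = 2.15e-05) and in the unnamed Pdgfra+ cells (log2 fold change -0.76 ± 0.09 (SE), adjusted p = 0.000516) also passed. The ages did not overlap in any of the 4 classes, and each call held with every library left out. No difference of the age effect on Loxl1 between classes passed the test, and Icam1+ preadipocytes minus Dpp4+ fibroblasts gave 0.04 ± 0.10 (SE), adjusted p = 0.888.

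Lox fell with age in Dpp4+ fibroblasts and rose in Icam1+ preadipocytes. In Dpp4+ fibroblasts Lox was at 94.3, 122 and 78.3 CPM in young and 55.9, 66 and 55.7 CPM in aged libraries, and the aged libraries lay below all young ones (log2 fold change -0.74 ± 0.07 (SE), adjusted p = 0.00019). Icam1+ preadipocytes, in which Lox was several-fold higher, had 454, 475 and 364 CPM in young and 652, 589 and 607 CPM in aged libraries, and there each aged library lay above every young one (log2 fold change 0.54 ± 0.09 (SE), adjusted p = 0.00566). Both calls held with each library left out. The difference of the age effect between the 2 classes was 1.26 ± 0.11 (SE), adjusted p = 0.000598, and it was called in each of the 16 alternatives run. Cd142+ fibroblasts showed no called change (log2 fold change 0.10 ± 0.09 (SE), adjusted p = 0.541), and their age effect differed from that of Dpp4+ fibroblasts by 0.83 ± 0.09 (SE), adjusted p = 3.23e-05. In the unnamed Pdgfra+ cells Lox rose (log2 fold change 0.50 ± 0.12 (SE), adjusted p = 0.0203), a call lost without the young TN or aged TN library (largest adjusted p = 0.1). At 2000 UMIs per cell, Lox was seen in 44.5 to 53% of young and 59.6 to 63.7% of aged Icam1+ preadipocytes, in 12 to 19.1% and 8.7 to 11% of Dpp4+ fibroblasts, and in 2.74 to 8.51% and 2.0 to 6.67% of immune-like cells. The fall in Dpp4+ fibroblasts did not pass when the members and markers were kept among the genes used for clustering (log2 fold change -0.36, adjusted p = 0.293).

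Differences of the age effect between classes were tested over 12 class-by-library sums with the library as a block. Of the 10 members, 2 (Lox and Mfap5) differed between Icam1+ preadipocytes and Dpp4+ fibroblasts beside 2.34% of all genes tested. The comparison of Cd142+ with Dpp4+ fibroblasts called 3 (Fbn2, Fbln2 and Lox) beside 1.71%, and that of Cd142+ fibroblasts with Icam1+ preadipocytes called 2 (Fbn2 and Mfap5) beside 2.7%. Eln, Fbn1, Fbln1, Fbln5, Mfap4 and Loxl1 were called in none of the 3; a p that misses the threshold does not show equal effects, and for Eln the difference between Icam1+ preadipocytes and Dpp4+ fibroblasts was 0.59 ± 0.18 (SE), adjusted p = 0.129.

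Markers of the neighbouring fibroblast classes moved with age in some classes. In the unnamed Pdgfra+ cells the summed level of the 10 Dpp4+ markers was 3420.4 to 4875 CPM in young and 982 to 2075 CPM in aged libraries, with 8 of 10 called lower. That of the 10 Icam1+ markers was 4135 to 5408 and 5791 to 7445 CPM, with 6 called higher. Within Icam1+ preadipocytes the Dpp4+ markers summed to 187 to 287 CPM in young and 86.8 to 183 CPM in aged libraries, against 8572 to 9701 CPM in young Dpp4+ fibroblasts; 6 of the 10 were called lower in Icam1+ preadipocytes. In Cd142+ fibroblasts they summed to 1089 to 1346 and 834 to 1051 CPM, with 3 called lower. The Icam1+ markers in Cd142+ fibroblasts summed to 4686 to 4960.2 CPM in young and 2989 to 3549 CPM in aged libraries, also without overlap, with 4 called lower and 3 higher. In Dpp4+ fibroblasts their own 10 markers summed to 7216 to 7582 CPM in aged libraries, below all young ones, with 3 called lower and 1 higher. The Icam1+ markers in these cells, where Lox fell, summed to 786 to 839 CPM in young and 696 to 929 CPM in aged libraries; these sums overlap, but 4 of the 10 were called higher and 2 lower. The 8 Cd142+ markers summed to 530 to 673 CPM in young and 807 to 1158 CPM in aged unnamed Pdgfra+ cells, with 5 called higher. In Icam1+ preadipocytes they summed to 781 to 871 and 933 to 1148 CPM, with 2 called higher and 1 lower. For Dpp4+ fibroblasts the sums were 173 to 253 and 241 to 324 CPM, with 4 called higher. Within Cd142+ fibroblasts they were 2217 to 2374 and 1912 to 2267 CPM, with 3 called lower. The part of these shifts in the results for the members was not tested. Pdgfra itself was at 268 to 342 CPM in young and 244 to 269.6 CPM in aged Dpp4+ fibroblasts, where it fell by 0.30 on the log2 scale.

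In the vessel-associated classes fewer members were tested. Of the 8 members tested in endothelial-like cells, 4 fell with age (Fbn1, Fbln1, Mfap5 and Loxl1), beside 3.2% of all genes tested. Fbn1 there was at 128, 94.5 and 154 CPM in young and 58.2, 46.9 and 71.8 CPM in aged libraries (log2 fold change -1.04 ± 0.09 (SE), adjusted p = 0.000507). Mfap5 was at 90.7, 66.5 and 113 CPM in young and 36.9, 29.5 and 40.8 CPM in aged libraries (log2 fold change -1.26 ± 0.11 (SE), adjusted p = 0.000395). The marker lists of the fibroblast classes did not all move the same way in these cells. Pdgfra was at 30.5 to 43.1 CPM in young and 15.8 to 22.1 CPM in aged libraries and was called lower (log2 fold change -0.85). The 10 Dpp4+ markers summed to 716 to 1032 and 511 to 615 CPM, with 3 of the 8 tested called lower. The 8 Cd142+ markers went the other way, at 335 to 380 and 384 to 466 CPM, with 1 of the 6 tested called higher. Of the 10 Icam1+ markers 3 were called higher and 2 lower. They summed to 40505 to 50009 CPM in young and 46535 to 64795 CPM in aged endothelial-like cells. In Icam1+ preadipocytes they summed to less, 12902 to 13451 CPM in young and 13004 to 14777 CPM in aged libraries. This list therefore does not track fibroblast transcripts in endothelial-like cells. The part of fibroblast transcripts in the 4 falls was not tested. None of the 4 calls was made with clusters at resolution 0.3, with the per-cell marker gate or with equal cells at 2000 UMIs. Those fits called few genes of any kind: 0 of 11764 at resolution 0.3, 4 of 11218 with the gate and 102 of 7941 with equal cells. The main fit called 346 of 10826, so these losses are not particular to the members. The call of Fbln1 was also lost without the young 14D, aged 3D or aged 14D library (largest adjusted p = 0.126). Fbln5, which of all classes was highest here, was at 209, 272 and 229 CPM in young and 225, 207 and 225 CPM in aged libraries, and the ages overlapped (log2 fold change -0.05 ± 0.10 (SE), adjusted p = 0.847).

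In SMC/pericyte cells none of the 8 members tested passed with edgeR, beside 0.159% of all genes. DESeq2 called 3, beside 23 of 10037 genes. By edgeR 6 of the 8 had an unadjusted p under 0.05. The share of all genes at that level was not counted, so no change is read from the 6. Eln, which smooth muscle also makes, was at 183, 123 and 125 CPM in young and 121, 53.9 and 63.4 CPM in aged libraries, with a log2 fold change of -0.88 ± 0.14 (adjusted p = 0.0569). Fbln1 came close to the threshold (log2 fold change -1.43 ± 0.22 (SE), adjusted p = 0.0503). Fibroblast transcripts were present in these cells too: the 10 Dpp4+ markers summed to 1548 to 2784 CPM in young and 901 to 1771 CPM in aged libraries, and Pdgfra stood at 128 to 179.7 CPM in young and 76.8 to 117 CPM in aged libraries. Their part in these values was not tested.

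Temperature was tested next, over TN, 3D and 14D jointly with age as a term, which leaves 2 libraries per temperature. Icam1+ preadipocytes had 4 called members (Eln, Fbn2, Fbln1 and Fbln5), beside 4.97% of all genes tested. Dpp4+ fibroblasts had 2 (Fbn1 and Lox) beside 5.91%, and Cd142+ fibroblasts 2 (Fbn1 and Mfap4) beside 3.08%. Whether cold acted differently in young and aged mice cannot be tested, since each age and temperature had 1 library.

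**Figure D4:**
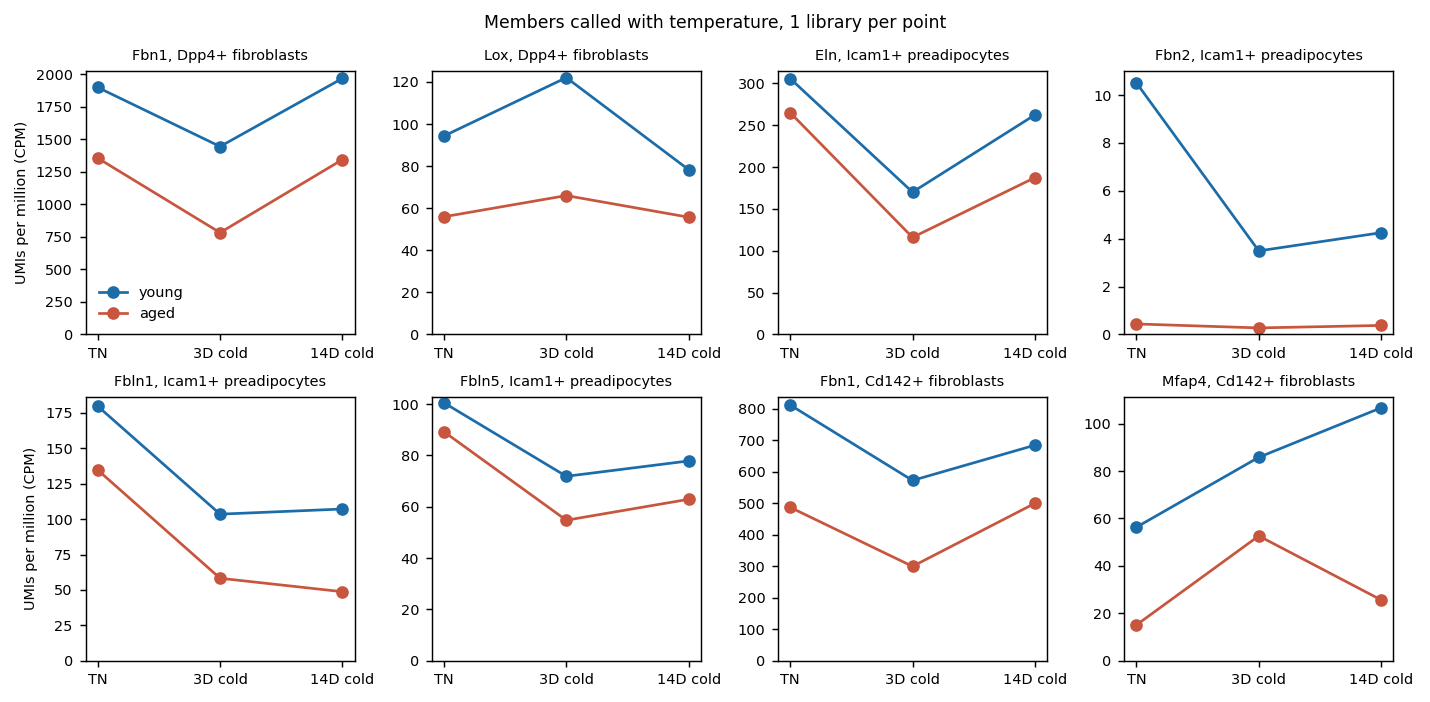
Level (CPM) at TN, 3D and 14D in young and aged libraries, 1 library per point, for the 8 combinations of member and class called with temperature. Fbn1 and Eln are lowest at 3D at both ages, Fbln1 and Fbln5 in Icam1+ preadipocytes are lower at 3D and 14D than at TN at both ages, and Mfap4 in Cd142+ fibroblasts is lowest at TN.

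Fbn1 in Dpp4+ and Cd142+ fibroblasts and Eln in Icam1+ preadipocytes were lowest after 3 days of cold at both ages. In Dpp4+ fibroblasts Fbn1 was at its lowest at 3D in young (1445 CPM) and in aged libraries (783 CPM), and differed from TN by -0.61 ± 0.10 (SE) at 3D and 0.03 ± 0.10 at 14D (joint adjusted p = 0.0114). The call was lost without the aged 3D library (adjusted p = 0.114) and with members and markers among the clustering genes. Cd142+ fibroblasts also had their lowest values at 3D at both ages, with Fbn1 at 812, 572 and 684 CPM in young and 487, 299.7 and 499.8 CPM in aged libraries. Its differences from TN were -0.60 ± 0.11 (SE) at 3D and -0.10 ± 0.11 at 14D (joint adjusted p = 0.00734), a call lost without the aged TN or aged 3D library (largest adjusted p = 0.183). For Eln in Icam1+ preadipocytes, whose levels are given above, the differences from TN were -0.98 ± 0.09 (SE) at 3D and -0.34 ± 0.09 at 14D (joint adjusted p = 0.00249), and the call was lost without the aged 3D library (adjusted p = 0.0567). Eln did not pass in Dpp4+ fibroblasts (-0.38 ± 0.10 (SE) at 3D and -0.17 ± 0.10 at 14D; joint adjusted p = 0.0984) or in Cd142+ fibroblasts (joint adjusted p = 0.762).

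Fbln1 and Fbln5 in Icam1+ preadipocytes were lower at both cold time points. Fbln1 was at 179.7, 103 and 107 CPM in young and 135, 58.2 and 48.7 CPM in aged libraries. It differed from TN by -0.97 ± 0.13 (SE) at 3D and -1.07 ± 0.13 at 14D (joint adjusted p = 0.00435), a call that held with each library left out. Fbln5 was at 100.5, 71.8 and 77.8 CPM in young and 89.2, 54.7 and 62.9 CPM in aged libraries. Its differences from TN were -0.56 ± 0.08 (SE) at 3D and -0.42 ± 0.08 at 14D (joint adjusted p = 0.00938), a call lost without the young 3D or aged 3D library (largest adjusted p = 0.118). For Fbn2 in the same cells the call (joint adjusted p = 0.0216) was made with 4 to 10 UMIs in each aged library, and was lost without the young TN, young 3D or aged 3D library (largest adjusted p = 0.686), with DESeq2, with the gate and with equal cells at 2000 UMIs. Mfap4 in Cd142+ fibroblasts was lowest at TN at both ages, with differences from TN of 1.06 ± 0.22 (SE) at 3D and 0.89 ± 0.23 at 14D (joint adjusted p = 0.0221), a call lost without the aged TN library (adjusted p = 0.358), with DESeq2, with the per-cell marker gate, with equal cells at 2000 UMIs and with members and markers among the clustering genes. Lox in Dpp4+ fibroblasts was highest at 3D at both ages, with differences from TN of 0.29 ± 0.08 (SE) at 3D and -0.13 ± 0.08 at 14D (joint adjusted p = 0.0428), lost without the young 3D library (adjusted p = 0.311). That call was also lost with equal cells at 2000 UMIs, the per-cell marker gate, resolution 0.3 or members and markers among the clustering genes. Mfap5, Fbln2 and Loxl1 were called with temperature in none of the 3 classes, with joint adjusted p-values of 0.139 to 0.669.

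A list of 38 other genes of elastic fibre assembly and turnover was followed beside the members. With age, Dpp4+ fibroblasts had 12 of 33 tested genes lower and 3 higher, beside 16.3% of all genes tested called in either direction. Icam1+ preadipocytes had 9 of 32 lower and 2 higher (12.4% of all genes), and Cd142+ fibroblasts 12 of 32 lower and 4 higher (12.6%). In the unnamed Pdgfra+ cells 10 of 32 were lower and 3 higher (13.3%). Counts for parts of the list below stand beside these same shares. The list's median log2 fold change lay between -0.27 and -0.16 in these classes.

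**Figure D5:**
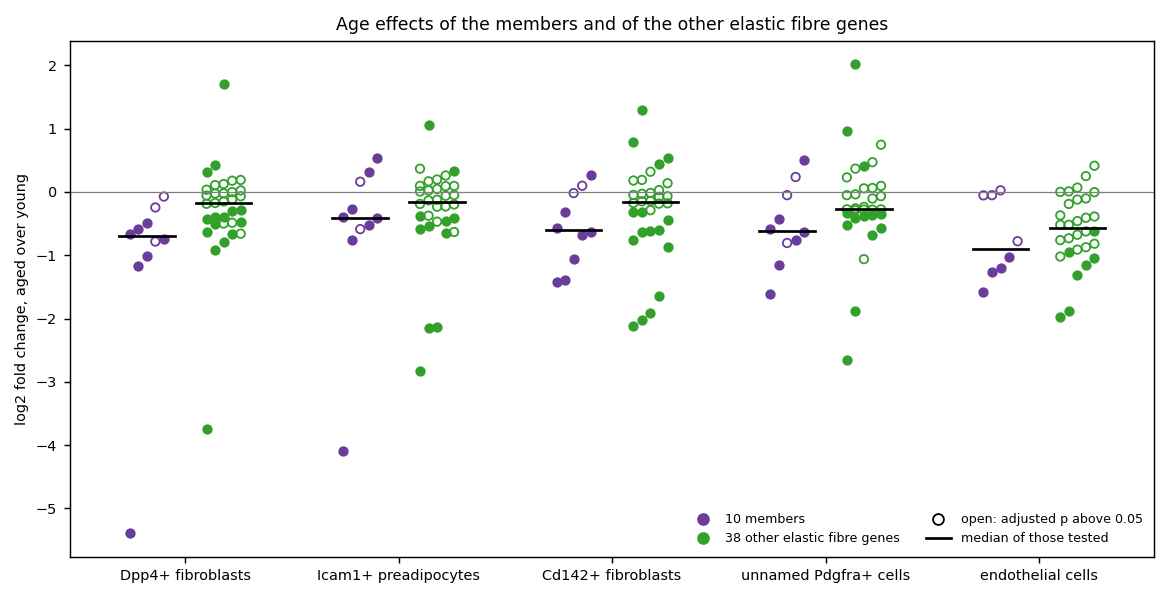
Log2 fold change with age, aged over young, of each tested member (purple) and each tested gene of the 38 other elastic fibre genes (green) in 5 cell classes; filled points passed the threshold, open points did not, and bars are medians. The medians lie below 0 for both lists in each class drawn.

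The largest fall on this list was in Postn, periostin, a matricellular protein that helps activate lysyl oxidase. The study had already reported Postn as lower with age in all its fibroblast progenitor populations, from these same data. In Dpp4+ fibroblasts it went from 517 ± 218 CPM to 40.3 ± 20.6 CPM (SD, n = 3 libraries an age; log2 fold change -3.74 ± 0.08, adjusted p = 6.07e-08). In the unnamed Pdgfra+ cells it went from 506 ± 165 CPM to 81.9 ± 40.4 CPM (SD, n = 3 libraries an age; log2 fold change -2.65 ± 0.20, adjusted p = 5.86e-05). Adamts10, a protease that binds fibrillin-1, went from 16.5 ± 1.67 CPM to 8.93 ± 0.522 CPM (SD, n = 3 libraries an age; log2 fold change -0.91 ± 0.10, adjusted p = 0.000461) in Dpp4+ fibroblasts. Of the other lysyl oxidases, Loxl2 (log2 fold change -0.64 ± 0.05 (SE), adjusted p = 6.86e-05) and Loxl3 (log2 fold change -0.50 ± 0.09 (SE), adjusted p = 0.00495) fell in Dpp4+ fibroblasts. Both fell in Cd142+ fibroblasts as well, by 0.61 ± 0.08 and 0.62 ± 0.13 on the log2 scale, and none of the 3 tested passed in Icam1+ preadipocytes by edgeR (1 of them at an unadjusted p under 0.05). Of the 5 secretion and processing genes tested, 3 fell in Dpp4+ fibroblasts, 4 in Cd142+ fibroblasts and 2 in Icam1+ preadipocytes, with none higher, and Bmp1, the proteinase that activates pro-lysyl oxidase, was among them in each of the 3 classes (-0.40 ± 0.07, -0.63 ± 0.09 and -0.53 ± 0.06). Among the genes of fibrillin assembly, Adamtsl2 and Adamts17 fell in Icam1+ preadipocytes (adjusted p = 0.00157 and 0.0153), both at under 5 CPM in every library, and 3 of the 5 tested there were called, with none higher. In Cd142+ fibroblasts the largest falls were in Adamtsl2 (adjusted p = 0.0191), with no UMI in the aged TN library, and in the proteinase Tll1 (log2 fold change -2.02 ± 0.46 (SE), adjusted p = 0.00708). Of the latent TGF-β binding proteins 1 of 3 tested fell in Dpp4+ fibroblasts, Ltbp3 (log2 fold change -0.43 ± 0.07 (SE), adjusted p = 0.00351). Among the other elastic fibre proteins Efemp2, fibulin-4, which is needed for elastin cross-linking, fell in Dpp4+ fibroblasts (log2 fold change -0.29 ± 0.07 (SE), adjusted p = 0.0177) and Cd142+ fibroblasts (log2 fold change -0.31 ± 0.09 (SE), adjusted p = 0.0259).

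A few genes rose, among them proteases. Fbln7, a short fibulin that is among the leading genes of the Icam1+ cluster, rose in all 4 Pdgfra+ classes. In Icam1+ preadipocytes it went from 130.3 ± 46.7 CPM to 259 ± 61.2 CPM (SD, n = 3 libraries an age; log2 fold change 1.05 ± 0.10, adjusted p = 0.00031). It rose in Cd142+ fibroblasts from 16.8 ± 2.55 CPM to 40.4 ± 6.16 CPM (SD, n = 3 libraries an age; log2 fold change 1.30 ± 0.14, adjusted p = 5.34e-06). The unnamed Pdgfra+ cells went from 22.4 ± 6.04 CPM to 92.5 ± 37.8 CPM (SD, n = 3 libraries an age; log2 fold change 2.02 ± 0.14, adjusted p = 4.35e-05). In Dpp4+ fibroblasts it stayed under 4 CPM in every library (log2 fold change 1.71 ± 0.24 (SE), adjusted p = 0.00154). Ctsk, cathepsin K, a protease that cleaves elastin and collagen, rose in Cd142+ fibroblasts from 584 ± 244 CPM to 967 ± 219 CPM (SD, n = 3 libraries an age; log2 fold change 0.80 ± 0.10, adjusted p = 4.9e-05). It also rose in Dpp4+ fibroblasts (log2 fold change 0.42 ± 0.06 (SE), adjusted p = 0.00169) and in the unnamed Pdgfra+ cells (log2 fold change 0.97 ± 0.14 (SE), adjusted p = 0.00181). Mmp14, a membrane-bound metalloproteinase, rose in Dpp4+ fibroblasts (log2 fold change 0.32 ± 0.07 (SE), adjusted p = 0.0115) and Cd142+ fibroblasts (log2 fold change 0.44 ± 0.08 (SE), adjusted p = 0.00132), while Mmp2, which it activates, fell in both (-0.48 ± 0.06 and -0.31 ± 0.08). Ltbp1, a latent TGF-β binding protein, rose in Icam1+ preadipocytes from 179 ± 19.7 CPM to 222 ± 22.9 CPM (SD, n = 3 libraries an age; log2 fold change 0.32 ± 0.07, adjusted p = 0.0127). Of the 7 receptors and receptor-complex genes on the list none rose in a Pdgfra+ class, while 1 fell in Icam1+ preadipocytes and 2 in each of the other Pdgfra+ classes. The 1 of 7 in Icam1+ preadipocytes was near the 12.4% of all genes called there. No shift of the receptors as a group is read from these counts. In endothelial-like cells 7 of the 30 tested fell and none rose, beside 3.2% of all genes tested. The largest falls there were in Ctss (log2 fold change -1.98 ± 0.45 (SE), adjusted p = 0.0446) and Postn (log2 fold change -1.88 ± 0.14 (SE), adjusted p = 0.000193). Ctss was scarce, at 8.12 to 10.6 CPM in young and 0.738 to 6.09 CPM in aged libraries. Postn, which also fell in Dpp4+ fibroblasts, had means of 75.3 CPM in young and 19.2 CPM in aged endothelial-like cells. The part of transcripts from other cells in these falls was not tested. At resolution 0.3 this class had 0 of 11764 genes called. In SMC/pericyte cells none of 28 passed with edgeR, beside 0.159% of all genes tested. At an unadjusted p under 0.05 there were 8 of the 28, and the share of all genes at that level was not counted.

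Over the 18 class-by-library sums of the 3 named fibroblast classes, which come from 6 libraries, the gene outside the set whose log2(CPM + 1) followed each member most closely, among 5516 genes with a mean of at least 20 CPM, was described by Pearson's r. The closest were Plagl1 for Loxl1 (0.978), Cd248 for Fbn1 (0.977), Scarf2 for Lox (0.975), Ccdc174 for Mfap5 (0.967), Timp1 for Mfap4 (0.955), Spry1 for Fbln2 (0.949), Dapk1 for Fbln1 (0.942), Pcsk5 for Eln (0.941), Pacs2 for Fbln5 (0.940) and Chchd1 for Fbn2 (0.888). Within the set, Lox was closest to Fbln2 (0.958) and Loxl1 to Mfap5 (0.925). These sums share libraries, their depth and the differences between classes, and no test was made.

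Levels summed over all cells of a library mix changes in level with changes in the share of each class, so that fewer cells of a type and less RNA per cell cannot be told apart. By this sum Eln was at 272, 222 and 278 CPM in young and 205, 117 and 145 CPM in aged libraries. Loxl1 was at 554, 489 and 587 CPM in young and 324, 316 and 375 CPM in aged libraries, without overlap, as were Fbln1 (277 to 298 against 124 to 168 CPM) and Fbn2 (2.75 to 6.92 against 0.335 to 0.893 CPM). For Lox the 2 ages overlapped, at 239, 288 and 190.4 CPM in young and 359, 296 and 242 CPM in aged libraries. Icam1+ preadipocytes, the class richest in Lox, numbered 2072, 2814 and 2447 cells in young and 3052, 2932 and 1372 in aged libraries.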

How the data were processed

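UMI counts of 6 libraries were analysed as deposited. Per the labels and the study's methods, the authors prepared 3′ libraries by droplet capture (10x Genomics) and counted UMIs per gene with Cell Ranger against mm10; the labels also name Seurat and R 4.1.1. The 10 members and the gene lists were chosen with earlier results of these data known. Barcodes over 200 genes (67282 of 68103) were filtered per library by limits of 3 median absolute deviations on UMIs, genes and mitochondrial share, and 57326 were kept. Cells were scaled to 10000 UMIs, reduced to 15 principal components of 6000 variable genes less the members and markers, and clustered (leidenalg 0.10.2, resolution 0.5; numpy 2.4.6, scipy 1.17.1 and scikit-learn 1.9.0 in Python 3.11.15). Doublets were scored with simulated pairs: clusters with over 50% of cells at high scores got no name, and other high scorers stayed in, with their removal as an alternative. A cluster was named from at least 3 markers and 50% of a list. The unnamed Pdgfra+ cells were added to the tests after the clusters were seen.

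Counts were summed per class and library and tested with edgeR 4.0.16 (R 4.3.3): filterByExpr, TMM factors and the quasi-likelihood F test, with Benjamini-Hochberg adjustment over all genes tested and a threshold of 0.05. The age test had temperature as a term (2 residual degrees of freedom), the temperature test had age, and differences between classes had the library as a block (4 residual degrees of freedom). The standard error is that of the fitted log2 fold change. With 1 library per age and temperature, libraries of the other temperatures or age stood in for replicates. Shares of cells with a UMI were taken after thinning to 2000 UMIs, without shallower cells, with exact binomial intervals, and they and the floors of 3 counts cover counting error only. Scripts were tested on simulated data. Named genes are the members and, per class, the other elastic fibre genes with the 2 greatest rises and 2 greatest falls among those called and changed the same way at every temperature; Loxl2, Loxl3, Bmp1, Ltbp3, Efemp2, Mmp2 and Mmp14 were added after their values were seen. Alternatives were DESeq2 1.42.0, RLE factors in edgeR, no filter on low counts, no second term, each library left out, other cell limits, resolutions 0.3 and 1.0, a per-cell marker gate, no high doublet scores, equal cells at 2000 UMIs, and clustering with the members and markers.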

Additional observations from a re-analysis of the deposited data

Results flagged for a closer look

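The age effect on 4 members differed between fibroblast classes by a test of the difference itself, the age by class term in edgeR over 12 class-by-library sums. For Lox, Icam1+ preadipocytes minus Dpp4+ fibroblasts gave 1.26 ± 0.11 (SE), adjusted p = 0.000598, and Cd142+ minus Dpp4+ fibroblasts 0.83 ± 0.09 (SE), adjusted p = 3.23e-05; the second was not called with members and markers among the clustering genes (adjusted p = 0.117). For Mfap5 the differences were 0.64 ± 0.12 (SE), adjusted p = 0.0211 for Icam1+ preadipocytes minus Dpp4+ fibroblasts and -0.48 ± 0.09 (SE), adjusted p = 0.0148 for Cd142+ fibroblasts minus Icam1+ preadipocytes. The latter was not called with the per-cell marker gate (adjusted p = 0.1004). For Fbln2, Cd142+ minus Dpp4+ fibroblasts gave 0.51 ± 0.10 (SE), adjusted p = 0.00925. For Fbn2, Cd142+ fibroblasts differed from Dpp4+ fibroblasts by 3.91 ± 0.58 (SE), adjusted p = 0.000688 and from Icam1+ preadipocytes by 2.56 ± 0.40 (SE), adjusted p = 0.00344; these are fitted sizes that depend on 1 UMI in each aged Dpp4+ library and 4 to 10 in each aged Icam1+ library, and are no bounds. The first was not called with equal cells at 2000 UMIs, nor the second with fixed cell limits or at resolution 0.3. The calls lost on leaving out a library are given with the values of each gene above. In no class could a group of 4 or more libraries be searched for a sample far from the others, since each age had 3.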

How the results depend on the processing

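Of the 27 age calls on members in the 5 classes set for testing, 20 held with each library left out. Over 459 alternative fits of these calls, 458 had the same direction, 1 gave no value and 394 kept the call. With each library left out in turn, members called with age numbered 5 to 8 in Icam1+ preadipocytes, 7 to 8 in Dpp4+ fibroblasts, 6 to 7 in Cd142+ fibroblasts, 3 to 5 in endothelial-like cells, 0 to 3 in SMC/pericyte cells and 5 to 6 in the unnamed Pdgfra+ cells. For temperature they numbered 1 to 6 in Icam1+ preadipocytes, 1 to 4 in Dpp4+ and 0 to 4 in Cd142+ fibroblasts, and for differences of the age effect 1 to 3 (Icam1+ against Dpp4+), 2 to 4 (Cd142+ against Dpp4+) and 1 to 5 (Cd142+ against Icam1+). With no temperature term, age calls numbered 1 in Icam1+ preadipocytes, 5 in Cd142+ fibroblasts and 2 in the unnamed Pdgfra+ cells. Over all genes those fits called 311 of 12702, 524 of 10876 and 430 of 11924. With no age term temperature calls numbered 0 in each of the 3 classes. Over all genes that fit called 0 of 13208 in Dpp4+ fibroblasts, 0 of 13019 in Icam1+ preadipocytes and 2 of 11158 in Cd142+ fibroblasts. The 0 is therefore no result about the members. DESeq2 called 5 members with age in Cd142+ fibroblasts (475 of 11158 genes) and 3 in SMC/pericyte cells (23 of 10037). By its likelihood ratio test it called 1 with temperature in Cd142+ fibroblasts (140 of 11158 genes). In endothelial-like cells the count was 0 with equal cells at 2000 UMIs, the per-cell gate or resolution 0.3. Over all genes these fits called 102 of 7941, 4 of 11218 and 0 of 11764. In SMC/pericyte cells the count was 1 with equal cells (17 of 5416 genes), 2 with the gate (13 of 10806) and 3 at resolution 1.0 (71 of 10895). It was 5 with fixed cell limits (370 of 11087 genes) or no filter on low counts (243 of 17010), beside 16 of 10037 in the main fit. As calls over all genes rose too, the higher counts are not read as a result about the members. Temperature calls in Dpp4+ fibroblasts numbered 0 with members and markers among the clustering genes (122 of 13172 genes) and 5 with no filter (2281 of 19999). In Cd142+ fibroblasts they numbered 1 with the gate (274 of 11666 genes). Differences between Icam1+ and Dpp4+ numbered 4 with fixed limits (282 of 14063 genes), resolution 0.3 (310 of 13948) or no filter (794 of 21120). Those between Cd142+ and Icam1+ numbered 1 with fixed limits (222 of 12544 genes), the gate (117 of 12462) or resolution 0.3 (241 of 12517). They numbered 6 with no filter (730 of 20167 genes). The causes were not tested. The per-cell gate gave 68.7% of cells the class of their cluster. The test of the unnamed Pdgfra+ cells was not run with the gate or at resolution 0.3, where no such class formed, nor for the other clusterings. Animals could not be paired, because the labels carry no replicate numbers and each age and temperature had 1 library. The temperature term did match young and aged libraries of the same temperature, and the library block matched classes of the same library. With 2 residual degrees of freedom and 1 UMI of Fbn2 in aged Dpp4+ libraries, few UMIs limit the precision for the scarce members.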

Other observations

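The balance of the 2 cross-linking enzymes can be read within a library as UMIs of Lox per UMI of Loxl1, which does not depend on library size. In Icam1+ preadipocytes it was 1.25, 1.42 and 0.932 in the young TN, 3D and 14D libraries and 2.57, 2.7 and 2.18 in the aged ones and the ages did not overlap. In Cd142+ fibroblasts it was 0.608 to 1.02 in young and 1.03 to 1.45 in aged libraries, and in the unnamed Pdgfra+ cells 0.335 to 0.698 and 0.925 to 1.52, again without overlap. In Dpp4+ fibroblasts, where both genes fell, it was 0.0948 to 0.166 in young and 0.0944 to 0.137 in aged libraries, and the ages overlapped. This ratio was chosen after the levels of both genes were seen and was not tested.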
